A study of Mus musculus with 13 samples.

Results

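The 6 lymphatic endothelial genes Prox1, Lyve1, Mmrn1, Flt4, Vegfc and Reln were taken by symbol from the series' tables of estimated counts and of TPM, which corrects for transcript length and depth and allows levels of different genes to be compared. The tables list 20270 genes. The 6 genes were present in both tables and passed the filter on low counts that left 15315 genes. Bulk RNA of the lower right lung lobe was sequenced from 13 mice on the C57BL/6J background. The study's methods give male sex and an age of 13 weeks for the purchased C57BL/6J mice, and state no sex or age for the knockout mice. The Control group held 4 wildtype (WT) mice and, by the study's methods, controls received the saline vehicle, whereas 5 WT mice and 4 Cnr1-/- mice (CB1R KO, lacking the cannabinoid receptor gene Cnr1) were given bleomycin once by oropharyngeal aspiration, at 1 U per kg, and were sampled after 14 days. The deletion was not limited to a cell type, and without a group of knockout mice spared bleomycin the effect of the genotype alone cannot be told apart from its effect on the bleomycin response.

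Lymphatic vessels drain fluid and immune cells from the lung. Their endothelium is specified by the transcription factor PROX1, and it grows when the ligand VEGF-C, encoded by Vegfc, binds the receptor VEGFR-3, encoded by Flt4. LYVE1, a hyaluronan receptor, MMRN1, a secreted multimerin, and RELN, a secreted matrix glycoprotein, mark the same vessels. Each marker has other sources: Lyve1 is also carried by a subset of interstitial macrophages, Mmrn1 by platelets and megakaryocytes, Prox1 by cardiac muscle and neuroendocrine cells, and Vegfc is a ligand made by several cell types.

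Depth was 14615904 to 16662580 estimated counts in 12 libraries and 53463884 in CB1R KO replicate 11. The mice are named by the numbers in their labels. Cnr1 was at 1.62 to 4.10 CPM in Control, 3.46 to 6.97 CPM in WT bleomycin and 2.47 to 5.63 CPM in CB1R KO libraries, where CPM are counts scaled for library size, and since reads cannot be placed within the gene from these tables, such counts do not check the genotype and the group names rest on the labels. CB1R KO replicate 10 held the highest value of its group for each of the 6 genes. The labels of Control replicate 26 and of WT bleomycin replicates 4-B2 and 7 are written with capitals and the others in lower case, and what this marks is not stated.

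The start regions of the 4 genes that were higher after bleomycin are shown because they differ in base composition although the genes changed in the same direction. The sequences are the 250 bases before the RefSeq start on GRCm38.p6, another build than the authors' GRCm39, and capitals mark CG dinucleotides. Of the 6 genes, 5 matched the RefSeq table by symbol, and Lyve1 was not matched. The windows are chr1:190170828-190171077 on the minus strand for Prox1 (the first of its 2 starts), chr8:54077282-54077531 on the plus strand for Vegfc, chr5:22344706-22344955 on the minus strand for Reln and chr6:60944067-60944316 on the plus strand for Mmrn1.

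Prox1: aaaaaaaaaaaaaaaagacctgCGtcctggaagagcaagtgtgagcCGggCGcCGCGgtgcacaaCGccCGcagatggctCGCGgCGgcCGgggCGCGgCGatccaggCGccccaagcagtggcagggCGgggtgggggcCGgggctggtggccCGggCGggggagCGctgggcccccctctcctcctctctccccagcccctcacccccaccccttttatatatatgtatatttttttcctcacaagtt
Vegfc: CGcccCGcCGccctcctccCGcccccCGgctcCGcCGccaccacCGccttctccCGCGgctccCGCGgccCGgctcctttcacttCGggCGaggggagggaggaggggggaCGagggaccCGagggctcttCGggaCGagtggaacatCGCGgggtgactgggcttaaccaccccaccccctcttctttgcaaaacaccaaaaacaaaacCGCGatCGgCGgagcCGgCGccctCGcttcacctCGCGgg
Reln: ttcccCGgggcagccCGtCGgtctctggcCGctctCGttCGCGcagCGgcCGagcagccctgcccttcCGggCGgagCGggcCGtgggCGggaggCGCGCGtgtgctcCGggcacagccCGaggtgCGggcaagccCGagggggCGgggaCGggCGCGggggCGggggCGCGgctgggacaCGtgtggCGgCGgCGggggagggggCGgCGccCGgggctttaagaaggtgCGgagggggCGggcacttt
Mmrn1: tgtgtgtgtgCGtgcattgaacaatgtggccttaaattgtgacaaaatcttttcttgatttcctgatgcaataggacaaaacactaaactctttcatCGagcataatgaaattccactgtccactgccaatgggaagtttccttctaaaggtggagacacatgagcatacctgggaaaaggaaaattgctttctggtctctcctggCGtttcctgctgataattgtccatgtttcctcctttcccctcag

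The Reln window held 37 CG dinucleotides, the Vegfc window 30, the Prox1 window 20 and the Mmrn1 window 3, against a median of 6 over 32851 RefSeq windows of the same length. At least as many as in Reln were found in 2.20% of these windows, and at least as many as in Vegfc in 5.94%. The letters AACAAT, the core recognised by SOX factors, and GATAA, recognised by GATA factors, were searched on both strands. Of the 6 windows of the 5 matched genes, that of Mmrn1 held AACAAT once and GATAA once, and the others held neither. AACAAT was present in 9.42% and GATAA in 22.6% of all windows.

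The levels of the 6 genes are compared per length, in TPM. Lyve1 was the most abundant in each of the 13 libraries, at 78.0 to 191 TPM in Control, 98.5 to 230 TPM in WT bleomycin and 84.5 to 124 TPM in CB1R KO bleomycin lungs. In Control lungs Flt4 followed at 20.7 to 22.2 TPM. Vegfc (10.5 to 12.0 TPM) and Mmrn1 (8.18 to 11.5 TPM) overlapped, and below them lay Reln (1.38 to 1.57 TPM) and Prox1 (0.705 to 1.07 TPM), which did not overlap. In WT bleomycin lungs Flt4 (22.4 to 27.6 TPM) and Mmrn1 (22.9 to 29.8 TPM) overlapped, as did Reln (3.20 to 5.01 TPM) and Prox1 (3.01 to 4.17 TPM).

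WT bleomycin lungs were compared with Control lungs to find how the genes moved with lung injury. Prox1, Reln, Mmrn1 and Vegfc were higher in WT bleomycin lungs, between 1.68-fold for Vegfc and 3.64-fold for Prox1, and Flt4 and Lyve1 did not pass the test. The CPM are scaled after TMM normalization, and the test is the quasi-likelihood test of edgeR, with p adjusted by Benjamini and Hochberg over 15315 genes, at an adjusted p of 0.05. The 4 genes called stand beside a background of 48.9% of all genes called in either direction and 25% called higher. The libraries of the 2 groups did not overlap for the same 4 genes, and for 40.3% of all genes. In bulk tissue, more cells of a type and more RNA per cell cannot be told apart.

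Vegfc, the ligand, was at 17.6, 17.4, 17.0 and 20.0 CPM in Control replicates 3, 21, 24 and 26, and at 33.6, 29.6, 30.6, 29.7 and 27.6 CPM in WT bleomycin replicates 4, 2, 5, 4-B2 and 7. The lowest WT bleomycin lung lay above the highest Control lung. This was a log2 fold change of 0.75 (SE 0.14, adjusted p = 0.000489 by edgeR). Flt4, its receptor, was at 89.4, 94.8, 96.4 and 92.5 CPM in the Control lungs and at 91.5, 112, 110, 122 and 118 CPM in the WT bleomycin lungs, in the same orders. WT bleomycin replicate 4 lay among the Control values and the other 4 lay above them. Flt4 had a log2 fold change of 0.25 (95% confidence interval 0.01 to 0.48, adjusted p = 0.0752 by edgeR). It passed the threshold by edgeR without that library (0.31, adjusted p = 0.0275) and without CB1R KO replicate 10, which enters the shared spread (0.25, adjusted p = 0.0221). Lists of other cells that the lung holds also moved up. Of 3 macrophage markers 3 rose (median log2 fold change 1.28). Of 4 fibroblast markers 2 rose, 0 fell and 2 were not called (median 1.43), beside 25% of all genes called higher. The part of these cells in the Vegfc values, and in those of the other genes, was not tested.

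Prox1, the transcription factor, was at 5.77, 3.91, 4.61 and 5.93 CPM in Control replicates 3, 21, 24 and 26 and at 15.6, 21.9, 16.4, 18.96 and 19.2 CPM in WT bleomycin replicates 4, 2, 5, 4-B2 and 7. All WT bleomycin lungs lay above the Control lungs, with a log2 fold change of 1.87 (SE 0.27, adjusted p = 6.46e-05 by edgeR). It was 1.22 (adjusted p = 0.000115) by limma on log2(TPM + 1), a scale that understates changes of genes at the low TPM of Prox1, and there Mmrn1, at 1.31, was above it. The 6 cardiac muscle markers, from cells that also carry Prox1, moved the other way: 6 of 6 fell (median log2 fold change -2.09), beside 23.9% of all genes called lower, with summed levels of 592 to 1567 TPM in Control and 103 to 419 TPM in WT bleomycin lungs. Of 6 neuroendocrine markers 4 were tested, 1 of which rose and 2 of which fell, beside 25% of all genes higher and 23.9% lower. All 6 summed to 11.3 to 15.5 TPM in Control and 15.5 to 24.5 TPM in WT bleomycin lungs. Their part in the Prox1 result was not tested.

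Mmrn1 was at 34.3, 31.7, 25.1 and 30.0 CPM in the Control lungs and at 70.2, 78.3, 69.1, 77.9 and 90.8 CPM in the WT bleomycin lungs. The WT bleomycin lungs were all higher, with a log2 fold change of 1.35 (SE 0.19, adjusted p = 4.84e-05 by edgeR). Of the 8 markers of platelets and megakaryocytes, which also carry Mmrn1, 7 fell and 1 was not called (median log2 fold change -1.70), beside 23.9% of all genes called lower. Their summed level was 82.9 to 142 TPM in Control and 36.9 to 61.0 TPM in WT bleomycin lungs. The part of these cells in the Mmrn1 values was not tested. Reln was at 10.9, 11.6, 12.6 and 11.8 CPM in the Control lungs and at 30.5, 24.4, 35.4, 33.2 and 39.9 CPM in the WT bleomycin lungs. Again the groups were apart, with a log2 fold change of 1.48 (SE 0.23, adjusted p = 0.000109 by edgeR).

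Lyve1 varied more within groups than between them. It was at 147, 239, 367 and 379 CPM in Control replicates 3, 21, 24 and 26 and at 179, 198, 195, 420 and 440 CPM in WT bleomycin replicates 4, 2, 5, 4-B2 and 7. The highest Control value and the 2 highest WT bleomycin values came from libraries whose labels have capitals. Between the groups its log2 fold change was 0.02 (95% confidence interval -0.65 to 0.68, adjusted p = 0.971 by edgeR). With the letter case of the labels as a term it was -0.22 (adjusted p = 0.404), and with lower-case labels alone -0.39 (adjusted p = 0.252). The term itself was 0.96 for Lyve1 on the log2 scale, capitals minus lower case (SE 0.22, unadjusted p = 0.000625, adjusted p = 0.19 by edgeR), and lay between -0.0011 and 0.19 for the other 5 genes. Of 8 markers of Lyve1-carrying interstitial macrophages, 3 rose, 2 fell and 3 were not called between Control and WT bleomycin lungs. This stands beside 25% of all genes called higher and 23.9% called lower. The 8 summed to 4234 to 7515 TPM in Control and 1877 to 2435 TPM in WT bleomycin lungs. Most of that sum was Cbr2, with means of 6287 and 1734 TPM, while Folr2, Mrc1 and Mgl2 rose. The part of these macrophages in the Lyve1 values was not tested.

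**Figure D1:**
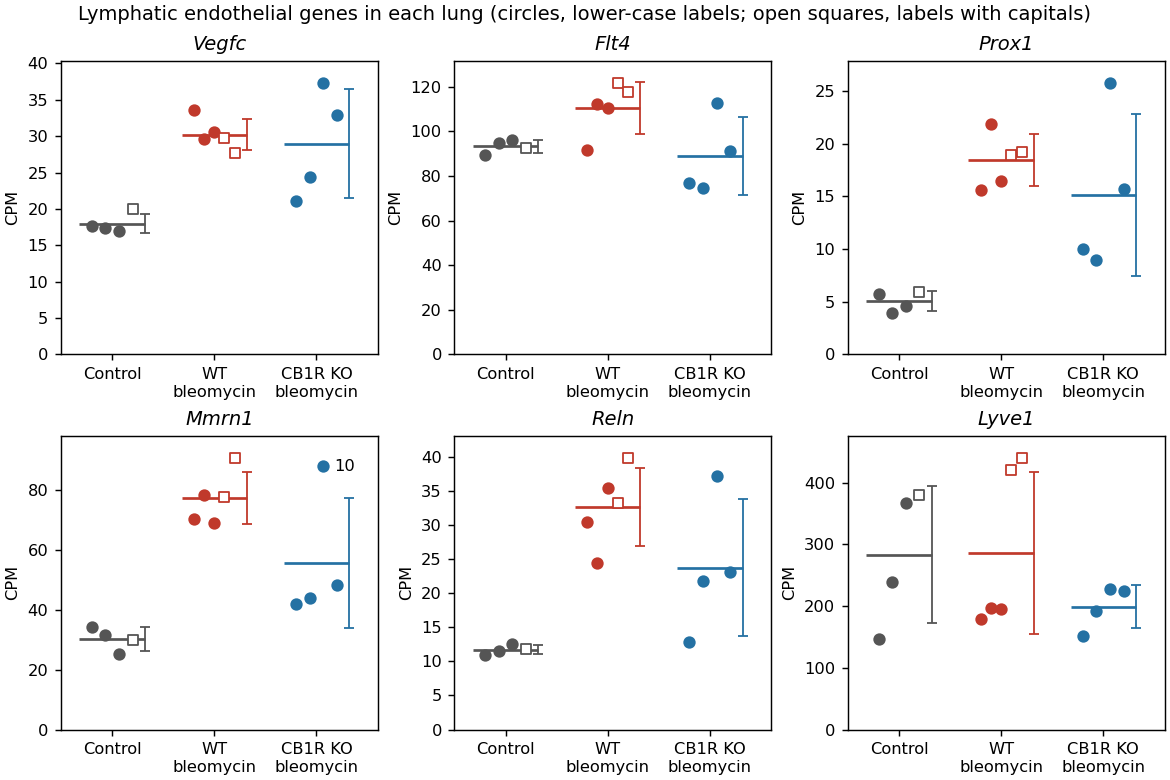
CPM of each gene (vertical axis, from 0) in the 4 Control, 5 WT bleomycin and 4 CB1R KO bleomycin lungs, with filled circles for lower-case labels, open squares for labels with capitals, a line at the group mean and a bar of 1 SD. For Vegfc, Prox1, Mmrn1 and Reln the WT bleomycin lungs lie above all Control lungs, and for Mmrn1 CB1R KO replicate 10, marked 10, lies at 88.1 CPM against 42.1 to 48.4 CPM in the other 3.

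CB1R KO bleomycin lungs were compared with WT bleomycin lungs to ask how the genes differed without the receptor. None of the 6 genes was called by edgeR, beside a background of 0.979% of all genes called. The 6 fitted log2 fold changes were below 0, with a median of -0.39 against 0.00 for all genes. Flt4 and Mmrn1 were under an unadjusted p of 0.05, as were 17% of all genes. DESeq2 and limma, run as alternatives, called none of the 6 either. Of all genes, DESeq2 called 640 of 15602 on all libraries and 644 of 15512 on 2 groups. The 2 limma fits called 93 and 109 of 15315. The libraries of the 2 groups overlapped for all 6 genes, and were apart for 5.6% of all genes.

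In CB1R KO replicates 8, 9, 10 and 11, Vegfc was at 21.1, 24.4, 37.3 and 33.0 CPM. Replicates 10 and 11 lay at the level of the WT bleomycin lungs or above it, and replicates 8 and 9 below it. The log2 fold change to WT bleomycin was -0.06 (95% confidence interval -0.34 to 0.23, adjusted p = 0.862 by edgeR). Flt4 was at 77.1, 74.8, 113 and 91.1 CPM, with replicate 10 alone above the lowest WT bleomycin lung, and its log2 fold change was -0.32 (95% confidence interval -0.55 to -0.08, adjusted p = 0.162 by edgeR).

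Prox1 was at 10.0, 8.99, 25.8 and 15.7 CPM in CB1R KO replicates 8, 9, 10 and 11. Replicate 10 held the highest Prox1 value of the 13 libraries and replicates 8 and 9 lay below every WT bleomycin lung. Its log2 fold change was -0.28 (95% confidence interval -0.81 to 0.24, adjusted p = 0.596 by edgeR). All 6 cardiac muscle markers had values above 0 in this comparison (median log2 fold change 1.10), none called, with summed levels of 397 to 762 TPM in CB1R KO lungs, and their part was not tested.

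Mmrn1 was at 42.1, 43.8, 88.1 and 48.4 CPM and Reln at 12.9, 21.8, 37.2 and 23.1 CPM in the same 4 lungs. For both genes replicate 10 lay within the WT bleomycin range and the other 3 lay below the lowest WT bleomycin lung. The log2 fold change was -0.48 for Mmrn1 (95% confidence interval -0.87 to -0.09, adjusted p = 0.204 by edgeR) and -0.46 for Reln (95% confidence interval -0.92 to 0.00, adjusted p = 0.294 by edgeR). Lyve1 was at 152, 192, 227 and 224 CPM in the CB1R KO lungs, all of which have lower-case labels, and overlapped the 179 to 198 CPM of the WT bleomycin lungs with such labels. Its log2 fold change to all WT bleomycin lungs was -0.52 (95% confidence interval -1.20 to 0.15, adjusted p = 0.42 by edgeR), and to those with lower-case labels 0.06 (adjusted p = 0.95).

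CB1R KO replicate 10 decided the calls of this comparison for 3 genes. Without it, Mmrn1 (log2 fold change -0.78, adjusted p = 0.00249), Flt4 (-0.45, adjusted p = 0.0176) and Reln (-0.75, adjusted p = 0.033) were lower in CB1R KO lungs by edgeR, and Prox1 (-0.65, adjusted p = 0.0741), Lyve1 (-0.59, adjusted p = 0.386) and Vegfc (-0.20, adjusted p = 0.409) were not called. The background then was 4.24% of 15417 genes called.

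**Figure D2:**
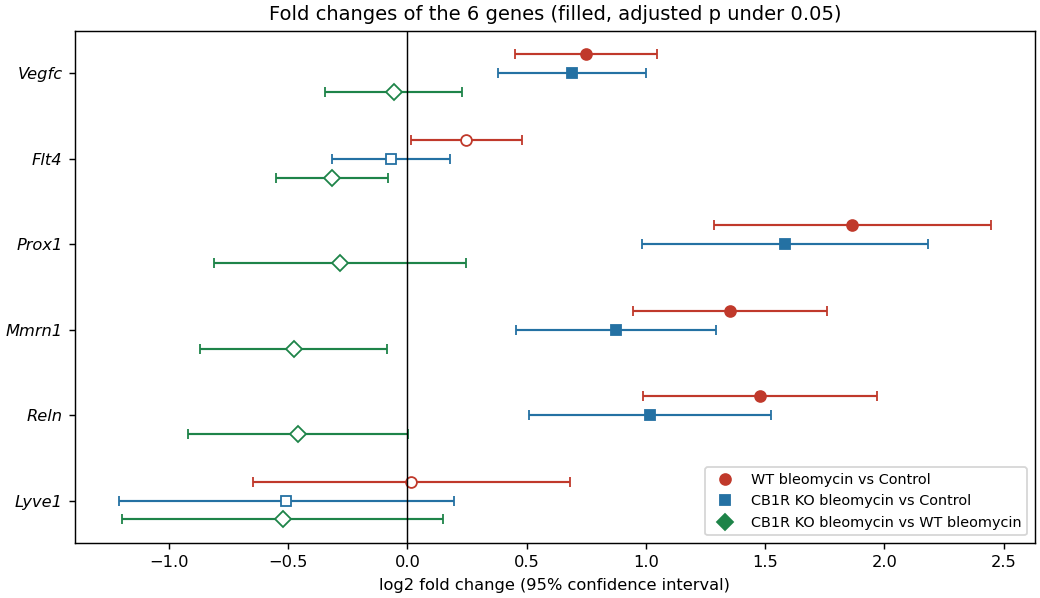
Log2 fold change (horizontal axis) of each gene in the 3 comparisons, with 95% confidence intervals from edgeR and filled symbols for an adjusted p under 0.05. Prox1, Reln, Mmrn1 and Vegfc are filled in both comparisons with Control, and no symbol of CB1R KO against WT bleomycin is filled.

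CB1R KO bleomycin lungs were also compared with the Control lungs, which the comparison of WT bleomycin lungs shares. Prox1 (log2 fold change 1.58, SE 0.28, adjusted p = 0.000644), Reln (1.02, SE 0.24, adjusted p = 0.00433), Mmrn1 (0.87, SE 0.20, adjusted p = 0.00346) and Vegfc (0.69, SE 0.14, adjusted p = 0.00213) were higher than in Control lungs by edgeR. Without CB1R KO replicate 10 these were 1.22 for Prox1 (adjusted p = 0.000722), 0.73 for Reln (adjusted p = 0.0109), 0.57 for Mmrn1 (adjusted p = 0.00202) and 0.56 for Vegfc (adjusted p = 0.00626), and by limma on log2(TPM + 1) Prox1 was 0.97 (adjusted p = 0.00183). The background was 35.4% of genes called and 19% called higher. The lowest CB1R KO lung lay above the highest Control lung for these 4 genes, by 12.9 against 12.6 CPM for Reln, and the groups were apart for 33.5% of all genes. Flt4 (-0.07, adjusted p = 0.674) and Lyve1 (-0.51, adjusted p = 0.246) were not called.

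A list of 17 further lymphatic markers was chosen with earlier results of these data known. Of these, 10 rose, 2 fell and 5 were not called between Control and WT bleomycin lungs, beside 25% of all genes higher and 23.9% lower. Their median log2 fold change was 0.53, against -0.01 for all genes. The 10 and the median include Nts, which passed the filter only through the group where it is high. The count and the median are therefore a description and not separate support. Fxyd6, a regulator of the sodium pump, was at 12.3 to 17.8 CPM in Control and 34.6 to 41.2 CPM in WT bleomycin lungs (log2 fold change 1.41, SE 0.16, adjusted p = 5.64e-06 by edgeR). Ccl21a, a chemokine that draws dendritic cells into lymphatic vessels, rose by 1.53 (SE 0.19, adjusted p = 1.56e-05 by edgeR). Its near-identical copies share reads, and the 3 copies in the table summed to 91.7 ± 11.4 CPM in Control (SD, n = 4), 282 ± 42.2 CPM in WT bleomycin (SD, n = 5) and 231 ± 85.9 CPM in CB1R KO bleomycin lungs (SD, n = 4). Of 4 markers of lymph node stroma and follicles, 3 were tested, of which 1 (Cxcl13) rose, 0 fell and 2 were not called. The 4 summed to 8.43 to 21.6 TPM in Control and 31.4 to 81.2 TPM in WT bleomycin lungs. Their part in the Ccl21a values was not tested. Nrp2, the VEGF-C co-receptor, rose by 0.83 (SE 0.10, adjusted p = 1.18e-05) and Pdpn, podoplanin, which type I alveolar cells also carry, by 0.63 (SE 0.07, adjusted p = 9.59e-06), both by edgeR.

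The 2 markers that fell were the transcription factors Sox18 (log2 fold change -0.47, adjusted p = 0.00281 by edgeR), which acts upstream of Prox1 in development, and Gata2 (-1.05, adjusted p = 1.81e-05), which was named after its values were seen. Both are also expressed by blood endothelium. Nr2f2, a partner of PROX1, was at 87.6 to 104 CPM in Control and 88.5 to 110 CPM in WT bleomycin lungs (-0.01, 95% confidence interval -0.22 to 0.21, adjusted p = 0.948 by edgeR). Of 8 markers of blood and all endothelium, 7 fell and 1 was not called (median log2 fold change -0.49), beside 23.9% of all genes lower, and their sum was 2116 to 2616 TPM in Control and 1534 to 1843 TPM in WT bleomycin lungs.

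Nts, the neurotensin gene, had 0, 2, 1 and 2 estimated counts in Control replicates 3, 21, 24 and 26, 29, 34, 25, 22 and 45 in WT bleomycin replicates 4, 2, 5, 4-B2 and 7, and 3, 6, 13 and 34 in CB1R KO replicates 8, 9, 10 and 11, the last from the deep library. Every CB1R KO lung was lower than every WT bleomycin lung in CPM, at 0.196 to 0.808 against 1.52 to 2.78 CPM. The cutoff of the count filter was reached in 5 WT bleomycin, 2 CB1R KO and 0 Control libraries, so the gene was tested only because it is high in WT bleomycin lungs, and its values are given as a description. Of the 17 markers it was the 1 past the threshold between the bleomycin groups (log2 fold change -1.91). That call held in 15 of 25 alternatives, and because of how the gene entered the test it is not read as a result.

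**Figure D3:**
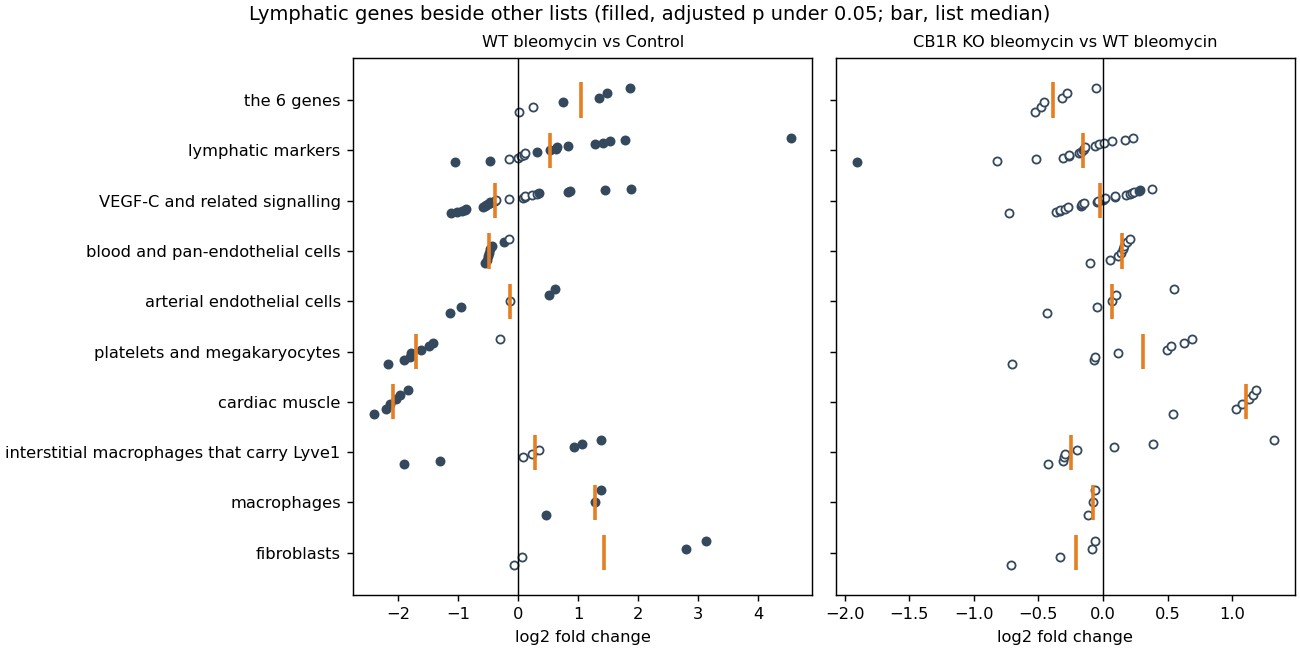
Log2 fold change (horizontal axis) of each gene of 10 lists, WT bleomycin against Control at left and CB1R KO against WT bleomycin at right, with filled points for an adjusted p under 0.05 and a bar at the list median. At left the 6 genes (median 1.05) lie above 0, with 4 filled and 2 open. The 3 macrophage markers and 2 of 4 fibroblast markers are also filled above 0. Below 0, 7 of 8 endothelial, 7 of 8 platelet and 6 of 6 cardiac muscle markers are filled.

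The second list held 24 genes of VEGF-C signalling and of related endothelial growth signalling, such as VEGF-A, angiopoietins, ephrins and adrenomedullin. Of these, 5 rose, 12 fell and 7 were not called between Control and WT bleomycin lungs (median log2 fold change -0.38), beside 25% of all genes higher and 23.9% lower. The 5 that rose were Adamts2, Pgf, Adm, Nrp2 and Itgb1, and the 12 that fell were Vegfa, Vegfb, Flt1, Kdr, Nrp1, Angpt1, Angpt2, Tek, Tie1, Efnb2, Calcrl and Ramp2, most of which encode ligands or receptors of the related signals rather than proteins particular to VEGF-C. Some of these genes were named after their values were seen. Among genes closer to VEGF-C itself, Vegfd, the second VEGFR-3 ligand, was at -0.37 (adjusted p = 0.104 by edgeR). Adamts3, the protease that activates VEGF-C, was at 0.23 (adjusted p = 0.375 by edgeR). Ccbe1, the co-factor of that protease, was at 0.10 (adjusted p = 0.764 by edgeR), and none of them was called. Nrp2, described above, rose, and the receptor gene Kdr, given below, fell. Adamts2, a procollagen protease that can also process VEGF-C, was at 55.7 to 76.2 CPM in Control and 202 to 256 CPM in WT bleomycin lungs (1.87, SE 0.10, adjusted p = 3.24e-08 by edgeR).

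Kdr, encoding VEGFR-2, fell by 1.01 (SE 0.13, adjusted p = 1.57e-05), Tek, the angiopoietin receptor, by 0.93 (SE 0.06, adjusted p = 6.9e-08) and Ramp2, part of the adrenomedullin receptor, by 1.12 (SE 0.11, adjusted p = 2.03e-06), on the log2 scale and all by edgeR. Ephb4, the ephrin B2 receptor, was at 0.08 (adjusted p = 0.425 by edgeR) and was not called. Tek was the 1 gene of this list that passed between the bleomycin groups, at 279 to 294 against 220 to 264 CPM (log2 fold change 0.29, SE 0.06, adjusted p = 0.0391 by edgeR). The call was lost in 11 of 25 alternatives.

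Across the 13 libraries, which share groups and differ in depth, Pearson's r of log2 CPM was between 0.88 and 0.95 for the 6 pairs among Prox1, Mmrn1, Vegfc and Reln. It was between 0.45 and 0.64 for Flt4 with these 4 genes, and between 0.00 and 0.18 in size for Lyve1 with them. After the group means were taken off, r was 0.58 to 0.82 for the 6 pairs, 0.54 to 0.79 for Flt4 with the 4 genes (0.79 with Prox1, 0.75 with Mmrn1 and 0.69 with Reln), and 0.13 to 0.47 for Lyve1 with them, the highest with Reln. Lyve1 and Flt4 were at 0.54 over the 13 libraries and at 0.52 after the group means were taken off. Without CB1R KO replicate 10, over 12 libraries, the 6 pairs were at 0.079 to 0.53, Flt4 with the 4 genes at 0.13 to 0.54 and Lyve1 with them at 0.060 to 0.53, and Lyve1 and Flt4 at 0.62.

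**Figure D4:**
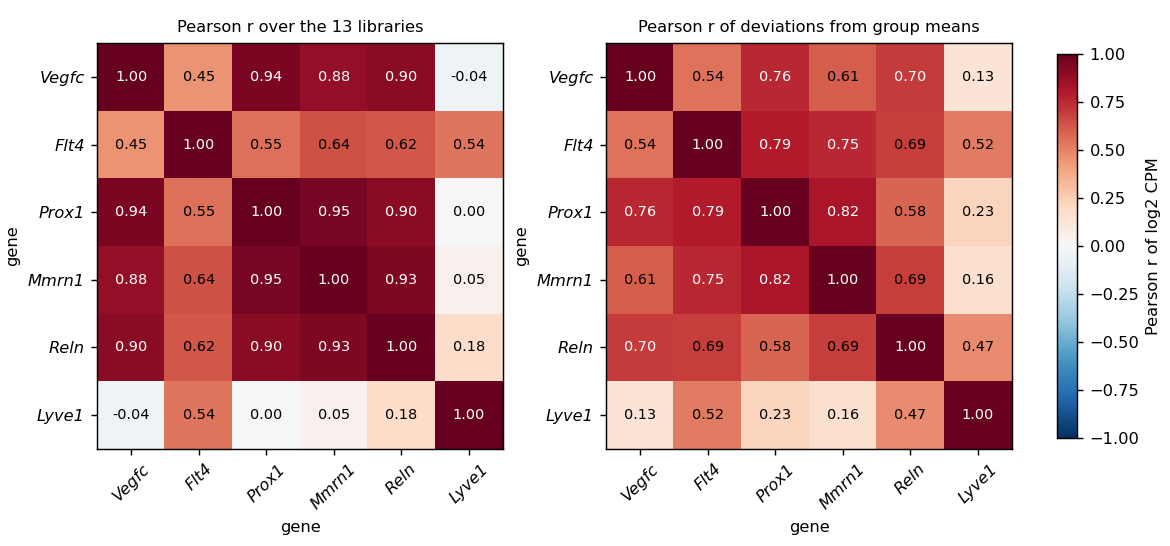
Pearson's r of log2 CPM between the 6 genes (both axes) over 13 libraries at left and of the deviations from group means at right, with colour from -1 to 1. At left Prox1, Mmrn1, Vegfc and Reln form a block, and Lyve1 lies near 0 with them. At right Lyve1 is at 0.13 to 0.47 with these genes.

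The genes most like each member over the 13 libraries (up to 3), by Pearson's r of log2 CPM among all genes tested, are given with that r, then the r of the deviations from group means, then the latter without CB1R KO replicate 10. For Prox1 they were Lrrc15 (0.98, 0.91, 0.78), Thbs2 (0.98, 0.89, 0.71) and Col11a1 (0.98, 0.87, 0.72), and for Mmrn1 Tnfsf18 (0.97, 0.93, 0.71), Tgfbi (0.97, 0.85, 0.66) and Fbln2 (0.97, 0.87, 0.66). For Vegfc they were Mad2l1 (0.97, 0.90, 0.82), Fam83d (0.97, 0.88, 0.93) and Fancd2 (0.97, 0.88, 0.86), which take part in cell division or DNA repair. Genes like Reln included Ubd (0.96, 0.81, 0.67) and Csrp2 (0.95, 0.78, 0.69), and Flt4 was most like Chst11 (0.93, 0.87, 0.70), Trim15 (0.89, 0.81, 0.76) and Dctd (0.89, 0.83, 0.69). Lyve1 was most like Sec61a2 (0.93, 0.92, 0.92), Tax1bp1 (0.89, 0.88, 0.90) and Doc2b (0.87, 0.90, 0.92).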

How the data were processed

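Lung RNA of 13 mice was measured with NEBNext Ultra II libraries and paired-end reads of 150 bases. The authors ran kallisto (build GRCm39 per the labels) and deposited estimated counts and TPM, each summed over the transcripts of a symbol. Of the estimated counts, 70.2% were not whole, and all were rounded here. Of the TPM columns, 1 matches no sample and was not used, and 13 single-sample tables repeat the same values.

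Low genes were removed with filterByExpr, TMM factors were taken, and 15315 genes entered edgeR 4.0.16 under R 4.3.3 (glmQLFit and glmQLFTest), with 1 coefficient per group. A prior count of 2 went into log2 CPM. Standard errors had medians of 0.11 to 0.12 on the log2 scale. The fit was checked on simulated counts in which 200 genes were changed. Alternatives were a fit without the filter, a minimum of 10 counts in each library, scaling by RLE or upper quartile, DESeq2 1.42.0, limma 3.58.1 on log2(TPM + 1) and log2(TPM + 0.1), edgeR on 2 groups, the letter case of the labels as a term, lower-case labels alone, CB1R KO replicate 11 thinned, and each library left out. Tables and plots were made in Python 3.11.15 (pandas 2.3.3; numpy 2.4.6; matplotlib 3.10.9).

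The members and lists were chosen with earlier results of these data known. Besides the 6 members, the text names genes of 2 lists that passed between the bleomycin groups, the 5 with the lowest p per list between WT bleomycin and Control, 8 fixed pathway genes, and the 3 genes most alike per member. Of the genes selected this way, 1 is not reported here.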

Additional observations from a re-analysis of the deposited data

Results flagged for a closer look

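Among 20 genes in 3 groups, the highest or lowest library was tested for standing apart from its group with Dixon's criterion, and 5 of 60 groups did, where chance gives about 1 in 20. Mmrn1 was at 88.1 CPM in CB1R KO replicate 10, against 42.1 to 48.4 CPM in the other 3 CB1R KO lungs. Ramp2 in the same library was the lowest of its group, at 119.8 CPM against 145.3 to 148.5 CPM. In WT bleomycin lungs Ramp2 was highest in replicate 7, at 148.6 CPM against 115.0 to 119.7 CPM, and Fxyd6 lowest in replicate 4, at 34.6 CPM against 39.3 to 41.3 CPM. Sox18 was highest in Control replicate 3, at 137.5 CPM against 98.7 to 104.0 CPM.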

How the results depend on the processing

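Each of the 9 counts and 18 fold changes of the 6 genes was recomputed under 25 alternatives. For the 6 genes, 4 to 5 were called between WT bleomycin and Control lungs, and 4 between CB1R KO bleomycin and Control lungs under all 25. Between CB1R KO and WT bleomycin lungs 0 were called except without CB1R KO replicate 10, where 3 were, so the range with single libraries left out was 0 to 3. The lymphatic marker list had 1 call there, that of Nts, which passed the count filter only through the group where it is high. This list had 0 with at least 10 counts in every library (the filter removes Nts), with the letter case as a term and with lower-case labels alone. It had 0 to 1 with single libraries left out, namely 0 without WT bleomycin replicates 2, 5, 4-B2 or 7, or without CB1R KO replicates 8, 9 or 11. The list of VEGF-C and related signalling had 1 call, 2 with DESeq2 on all libraries and on 2 groups, and 0 with edgeR on 2 groups, with the letter case as a term and with lower-case labels alone. It had 0 to 2 with single libraries left out. Of the fold changes over all alternatives, 433 kept direction and side of the threshold, 0 lost a call, 7 gained a call and 10 changed sign, none of them called. For Flt4 between WT bleomycin and Control lungs the calls were gained with DESeq2 on 2 groups (adjusted p = 0.0132) and edgeR on 2 groups (adjusted p = 0.0204), and without WT bleomycin replicate 4 or CB1R KO replicate 10. Lyve1 between WT bleomycin and Control lungs was -0.22 with the letter case as a term and -0.39 with lower-case labels alone, and -0.20 to 0.18 with single libraries left out. Between CB1R KO and WT bleomycin lungs it was 0.062 with lower-case labels alone. With single libraries left out, Flt4 between CB1R KO and Control lungs ranged from -0.20 to 0.0089, and Vegfc between CB1R KO and WT bleomycin lungs from -0.20 to 0.065. The cause of these changes was not tested. No paired analysis was possible because the groups share no replicate number.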

Other observations

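Within groups, the Lyve1 values moved with those of Fkbp5, a gene known to be induced by glucocorticoids, which was chosen after its values were seen. Fkbp5 was at 18.9, 38.9, 47.6 and 93.8 CPM in Control replicates 3, 21, 24 and 26, the order in which Lyve1 was at 147, 239, 367 and 379 CPM. In WT bleomycin replicates 4, 2, 5, 4-B2 and 7 Fkbp5 was at 48.9, 65.0, 94.5, 160 and 191 CPM, and the 2 highest are the libraries whose labels have capitals. Pearson's r with Lyve1 of the deviations from group means was 0.92 for Fkbp5, 0.77 for Zbtb16, 0.66 for Per1 and 0.64 for Tsc22d3. Glucocorticoids also induce Zbtb16, Per1 and Tsc22d3. Without taking off the group means, r was 0.71, 0.65, 0.64 and 0.46 in that order, over 13 libraries that share groups and differ in depth. Between groups, mean Fkbp5 was 49.8 CPM in Control and 112 CPM in WT bleomycin lungs. Mean Lyve1 was 283 and 286 CPM in these groups. No explanation was tested.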
